A study of Drosophila melanogaster with 6 samples.

Results

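The genes described are 35 genes that carry a fly cell through mitosis: cyclins, mitotic kinases, the spindle checkpoint, the chromosomal passenger complex, the kinetochore, kinesins, cytokinesis proteins and condensin. They were chosen by name, with earlier results of these data known. Where a gene had several probe sets, the brightest on average stood for it. A probe set was named for 27 of the 35, out of 10844 genes named on the array, and all 27 were among the 6975 of 14010 probe sets that passed the filter on low values, a log2 value above 4 on at least 3 arrays. No probe set was named for CycA, stg, Cdk1, polo, aurA, BubR1, Klp3A and pav, which were not analysed here. The arrays hold total RNA of Kc-167 cells, a line from Drosophila melanogaster embryos. In the first group, 3 arrays numbered 1 to 3, the cells had been treated for 5 days with double-stranded RNA (RNAi) specific for Enigma, a protein of mitochondria in the acyl-CoA dehydrogenase family. In the second, also 3 arrays numbered 1 to 3, the double-stranded RNA was against beta-lactamase, a bacterial gene, and served as the control. Both groups were otherwise treated alike per the labels, with 20 µg of double-stranded RNA and 1 hour without serum. The submitters state that depletion was followed by immunoblot and do not say whether replicates were separate cultures, so the spread behind each p-value may be technical.

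Mitosis is started by kinases bound to cyclins, above all Cdk1 with the A and B cyclins, and ended when the anaphase-promoting complex has those cyclins and securin destroyed. Kinetochores built on the centromere attach chromosomes to spindle microtubules, and the spindle checkpoint delays anaphase until all are attached. Many of these genes are transcribed mostly in dividing cells and late in the cell cycle, so their RNA in a culture depends both on how many cells divide and on how much RNA each makes. In RNA from whole cultures, fewer cells in mitosis and less RNA per cell cannot be told apart.

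The Enigma transcript was at 3.24, 3.51 and 4.21 on the log2 scale in Enigma RNAi cells, against 6.00, 6.41 and 6.71 in control cells, and the groups did not overlap (exact two-sided permutation p = 0.1, the smallest that 3 against 3 allows). The mitosis genes were on average lower after Enigma RNAi, in small steps. Of the 27, 26 had the lower mean in Enigma RNAi cells (background, 58.3% of all tested probe sets), and the median difference, Enigma RNAi minus control RNAi, was -0.29 on the log2 scale, a level of 81.9% of control, beside -0.031 over all tested probe sets. For 8 of the 27 every Enigma RNAi value was below every control value (background, 6.16%), namely Bub1, Incenp, borr, Cenp-C, Nnf1a, Klp10A, ncd and tum, and for 0 of the 27 every value was above (background, 2.81%). No single gene passed the threshold, an adjusted p under 0.05 with all 6975 probe sets in the adjustment (limma, adjusted p = 0.999 for all 27; background, 0%). At an unadjusted p under 0.05 there were 3 lower, Incenp, Nnf1a and tum (background, 2.57%), and 0 higher (background, 1.69%).

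The replicate number mattered for these counts, because arrays of the same number deviated together. With the number as a block in the limma fit, 15 of the 27 were lower at an unadjusted p under 0.05 (background, 12.4%) and 0 higher (background, 6.91%). None of the 27 passed the adjusted threshold in that fit either (background, 0.272% lower), the smallest adjusted p being 0.0574 for Nnf1a. The standard errors (SE) given gene by gene below are from the fit without the block. Over the 27 genes the median SE was 0.17 without the block and 0.11 with it. The difference had the same sign in all 3 pairs, a pair being the Enigma RNAi and the control array of one number, for 19 of the 27, all of them lower (background, 25.2%). The direction held without any single array, with 24 to 27 of the 27 lower, but the size of the median did not: it was -0.23 without control 3, -0.20 without Enigma 2 and -0.13 without both.

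**Figure D1:**
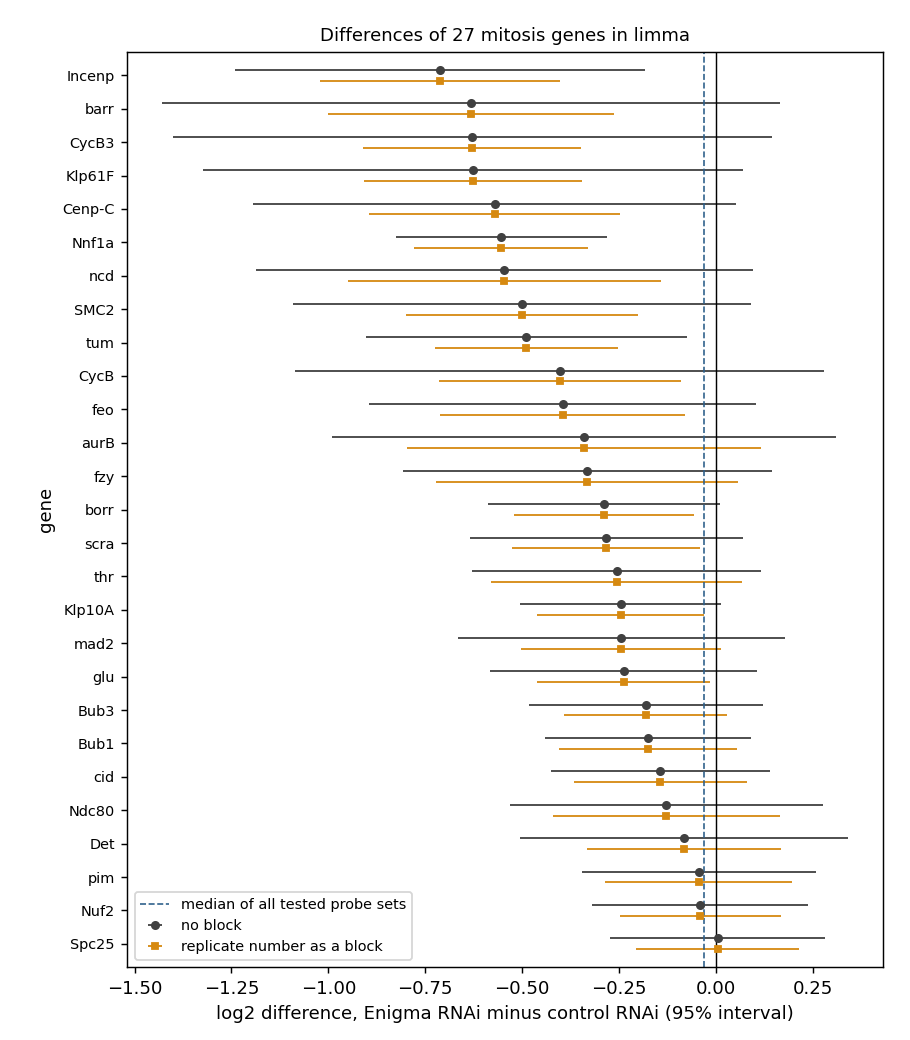
Log2 difference, Enigma RNAi minus control RNAi, of the 27 mitosis genes on the x axis, with 95% confidence intervals from limma without a block (circles) and with the replicate number as a block (squares), lowest difference at the top. The dashed line is the median of all tested probe sets, -0.031, and 26 of the 27 points lie left of 0.

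Both B-type cyclins on the array, the partners of Cdk1 that drive entry into and passage through mitosis, had lower means. CycB3 was at 4.96, 4.34 and 5.04 in Enigma RNAi cells and at 5.42, 4.82 and 5.99 in control cells. The groups overlapped, since control 2 lay below Enigma 1 and Enigma 3, while each Enigma RNAi array was below the control of its own number. The difference was -0.63 ± 0.32 (SE; limma, adjusted p = 0.999, and 0.0613 with the replicate block). It was -0.34 without control 3 or -0.41 without Enigma 2. CycB was at 5.52, 4.88 and 5.96 in Enigma RNAi cells and at 5.73, 5.67 and 6.17 in control cells, again lower in all 3 pairs and overlapping between groups. Its difference of -0.40 ± 0.29 (SE) was most negative in pair 2, at -0.79. It was -0.12 without Enigma 2, -0.25 without control 3 and -0.65 without Enigma 3.

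The chromosomal passenger complex, which corrects faulty attachments and later sits at the cleavage site, consists of the kinase encoded by aurB, the scaffold Incenp, Borealin (borr) and Survivin (Det). Incenp had the lowest difference of all 27 genes. It was at 7.03, 6.55 and 7.07 in Enigma RNAi cells, against 7.36, 7.43 and 7.99 in control cells, so that every Enigma RNAi array lay below every control array. The difference was -0.71 ± 0.22 (SE; limma, adjusted p = 0.999, and 0.0613 with the replicate block), a level of 61.1% of control.

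Borr was at 6.69, 6.39 and 6.66 in Enigma RNAi cells and at 6.81, 6.82 and 6.97 in control cells. These groups did not overlap either, with a smaller difference of -0.29 ± 0.13 (SE). A second probe set of borr, below the filter, differed by 0.0059. Det was at 7.42, 7.63 and 7.68 in Enigma RNAi cells and at 7.40, 7.58 and 8.00 in control cells, a difference of -0.082. The sign was positive in pairs 1 and 2, and the difference in pair 3 was -0.32. The 95% interval of Det (limma, no block) was -0.51 to 0.34. It includes the difference of borr, so Det was not shown to differ from borr. The kinase gene aurB was at 4.85, 5.04 and 4.91 in Enigma RNAi cells and at 4.88, 5.03 and 5.93 in control cells. Its difference of -0.34 ± 0.27 (SE) lay in pair 3, at -1.01, and was -0.016 without control 3 and -0.54 without control 1.

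Among the 6 centromere and kinetochore genes the differences were uneven. Nnf1a, a subunit of the Mis12 complex that links the centromere to the outer kinetochore, had the smallest p of all 27 genes. It was at 5.96, 5.75 and 6.00 in Enigma RNAi cells and at 6.54, 6.42 and 6.41 in control cells, with a gap between the groups wider than the range within either. The difference was -0.55 ± 0.11 (SE; limma, unadjusted p = 0.00209, adjusted p = 0.999, and adjusted p = 0.0574 with the replicate block). It stayed between -0.48 and -0.60 whichever array was left out.

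Cenp-C, the inner kinetochore protein that binds centromeric chromatin, was at 5.63, 5.77 and 5.99 in Enigma RNAi cells and at 6.09, 6.05 and 6.96 in control cells. The groups did not overlap, and the difference of -0.57 ± 0.26 (SE) was -0.27 without control 3. Its other 2 tested probe sets differed by less, at -0.20 and -0.18, and their groups overlapped. The mean over the tested probe sets of Cenp-C differed by -0.32. The centromeric histone gene cid was lower in all 3 pairs by small amounts, with a difference of -0.14, and of -0.051 without control 3. The subunits of the Ndc80 complex, which grips microtubules, differed least: Ndc80 by -0.13, Nuf2 by -0.040 and Spc25 by 0.0048. Low signal limits this reading, since Nuf2, at 4.48 to 4.74 over the arrays, and Spc25 lay not far above the filter. Ndc80 had a positive sign in pairs 1 and 2 and was at -0.47 in pair 3. Spc25, the gene nearest to no difference, was at 4.33, 4.57 and 4.34 in Enigma RNAi cells and at 4.32, 4.50 and 4.40 in control cells. The 95% interval of its difference was -0.27 to 0.28, which leaves room for a change of the size seen in cid.

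**Figure D2:**
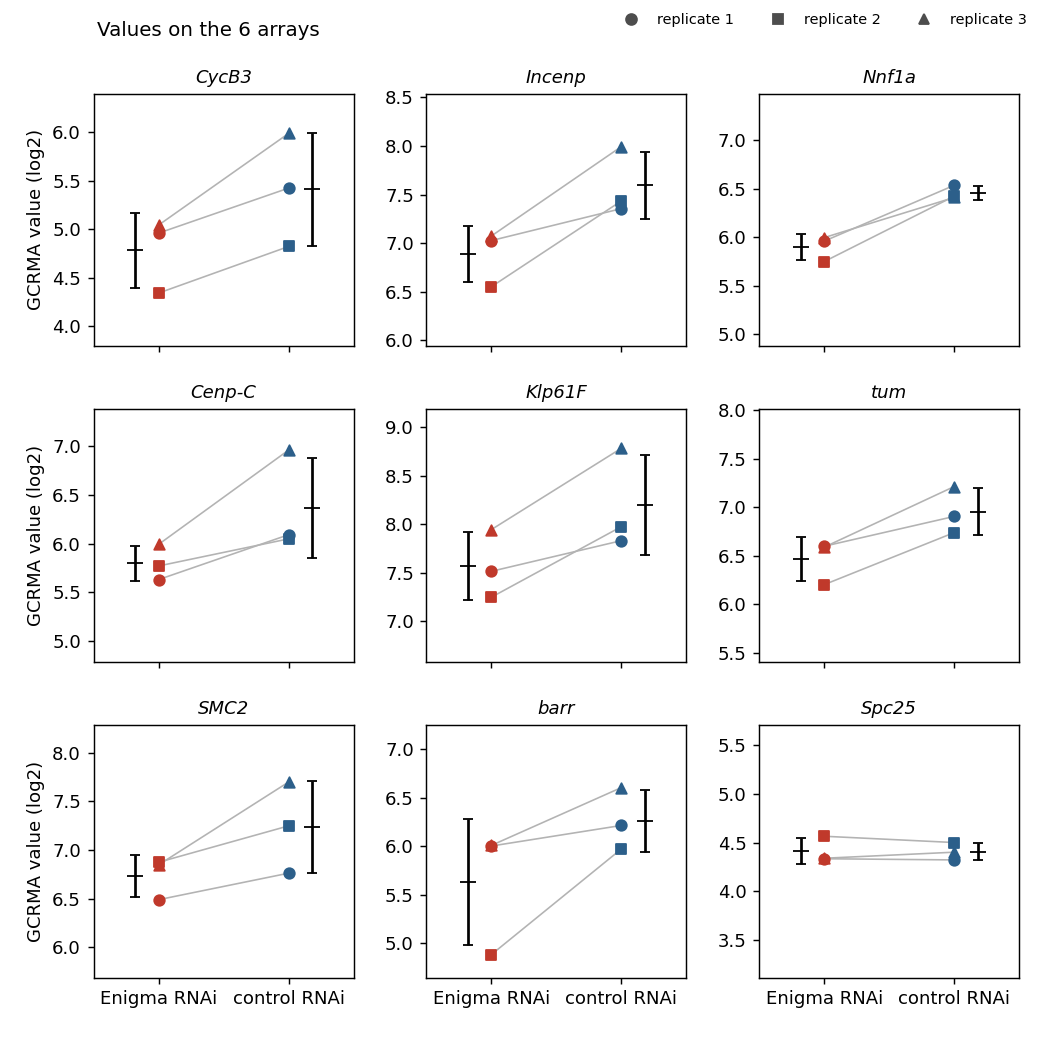
GCRMA values on the log2 scale (y axis, the same span in each panel) of 9 mitosis genes in Enigma RNAi cells (left, red) and control cells (right, blue). Symbols give the replicate number, grey lines join arrays of one number, and black bars are the mean ± SD (n = 3). For Incenp, Nnf1a, Cenp-C and tum all Enigma RNAi values lie below all control values, while Spc25 is level.

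The motors of the spindle were lower in all 3 pairs for all 3 kinesins tested. Klp61F, the bipolar motor that slides spindle poles apart, was at 7.52, 7.25 and 7.95 in Enigma RNAi cells and at 7.83, 7.98 and 8.78 in control cells. Enigma 3 lay above control 1, so the groups overlapped. The difference was -0.63 ± 0.29 (SE; limma, adjusted p = 0.999, and 0.0631 with the replicate block). It was -0.33 without control 3.

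Klp10A, which takes microtubules apart at their ends, was at 8.54, 8.62 and 8.38 in Enigma RNAi cells and at 8.77, 8.79 and 8.72 in control cells. The groups did not overlap, the spread was narrow, and the difference was -0.25 ± 0.11 (SE). The minus-end motor gene ncd was at 6.14, 6.23 and 6.28 in Enigma RNAi cells and at 6.32, 6.57 and 7.39 in control cells. The difference of -0.55 ± 0.27 (SE) rested for the most part on control 3, without which it was -0.23.

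Cytokinesis is the splitting of the cell after anaphase. The 3 genes of this role described here, tum, scra and feo, were also lower in all 3 pairs. The further cytokinesis genes were mixed. Of 13 further gene symbols, taken up below with a wider list, 7 could be tested. Of these 7, 3 had the lower mean, and the median difference of the 7 was 0.041. With the other symbols untested, the 7 do not settle the direction for cytokinesis genes in general. The Rac GTPase-activating protein gene tum, of the centralspindlin complex, was at 6.60, 6.20 and 6.59 in Enigma RNAi cells and at 6.90, 6.74 and 7.21 in control cells, without overlap. Its difference was -0.49 ± 0.17 (SE; limma, unadjusted p = 0.0271, adjusted p = 0.999, and adjusted p = 0.0687 with the replicate block). The anillin gene scra was at 7.89, 7.44 and 7.73 in Enigma RNAi cells and at 7.96, 7.85 and 8.10 in control cells. Its difference was -0.28 ± 0.15 (SE), and -0.16 without Enigma 2, and Enigma 1 lay above control 2. The midzone microtubule bundler gene feo was at 6.45, 5.62 and 5.97 in Enigma RNAi cells, a wide spread, and at 6.48, 6.33 and 6.42 in control cells. The difference was -0.40 ± 0.21 (SE), and -0.20 without Enigma 2 or -0.61 without Enigma 1.

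Condensin folds chromosomes for segregation, with SMC2 and glu as its ATPase subunits and barr as the bridge between them. SMC2 was at 6.49, 6.87 and 6.85 in Enigma RNAi cells and at 6.76, 7.25 and 7.70 in control cells. The gene barr was at 6.00, 4.88 and 6.01 in Enigma RNAi cells and at 6.21, 5.97 and 6.60 in control cells, with Enigma 2 far below the other 5 arrays. For glu the values were 8.30, 8.50 and 8.45 in Enigma RNAi cells and 8.39, 8.81 and 8.76 in control cells. All of these genes were lower in all 3 pairs and overlapped between groups. Their differences were -0.50 ± 0.25 (SE) for SMC2, -0.63 ± 0.33 (SE) for barr and -0.24 ± 0.14 (SE) for glu. Without control 3 that of SMC2 was -0.27, and without Enigma 2 that of barr was -0.26. That of glu ranged from -0.16 without control 2 to -0.37 without control 1.

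Genes of the spindle checkpoint and of anaphase onset had smaller differences. The gene fzy encodes the Cdc20 protein that activates the anaphase-promoting complex, and it was at 8.17, 7.68 and 8.41 in Enigma RNAi cells and at 8.27, 8.55 and 8.42 in control cells. Its difference of -0.33 ± 0.20 (SE) lay almost wholly in pair 2, and was -0.13 without Enigma 2. The gene thr encodes a subunit of the separase complex, and it was at 6.18, 6.50 and 6.12 in Enigma RNAi cells and at 6.41, 6.41 and 6.75 in control cells. Its difference was -0.26 ± 0.16 (SE), with a positive sign in pair 2, and was -0.14 without control 3. The checkpoint genes Bub1, Bub3 and mad2 differed by -0.17, -0.18 and -0.24. Single arrays moved these values too: Bub3 was at -0.10 without Enigma 1 and -0.12 without control 3, and mad2 at -0.093 without Enigma 2 and -0.12 without control 3. For Bub1 the groups did not overlap, although Enigma 3 at 4.07 and control 3 at 4.08 nearly met and the values lay at the filter. The securin gene pim differed by -0.044, with a positive sign in pairs 2 and 3.

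By role, the median differences were -0.55 over the 3 kinesins, -0.52 over the 2 cyclins, -0.50 over the 3 condensin genes, -0.40 over the 3 cytokinesis genes, -0.29 over the 3 passenger genes other than aurB, -0.21 over the 6 checkpoint and anaphase genes and -0.14 over the 6 centromere and kinetochore genes. These medians rest on few genes and the differences between roles were not tested. The 5 genes with a mean under 5 over the arrays, Bub1, pim, cid, Nuf2 and Spc25, had differences from -0.17 to 0.0048, the 13 with a mean between 5 and 7 a median of -0.49, and the 9 with a mean of 7 or more a median of -0.25. Tested probe sets of all genes had medians of 0.0060, -0.063 and -0.053 in the same bands of signal.

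Arrays of both groups differed among themselves, as the map of deviations by array shows. Control 3 was the highest of the 6 arrays for 18 of the 27 genes (66.7%; background, 22.5%), and it lay above the 6-array mean by a median of 0.35. Enigma 2 was the lowest for 14 (51.9%; background, 26.7%), at a median deviation of -0.26. The other arrays were closer to the mean, at -0.14 for Enigma 1, -0.067 for Enigma 3, 0.015 for control 1 and 0.049 for control 2.

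**Figure D3:**
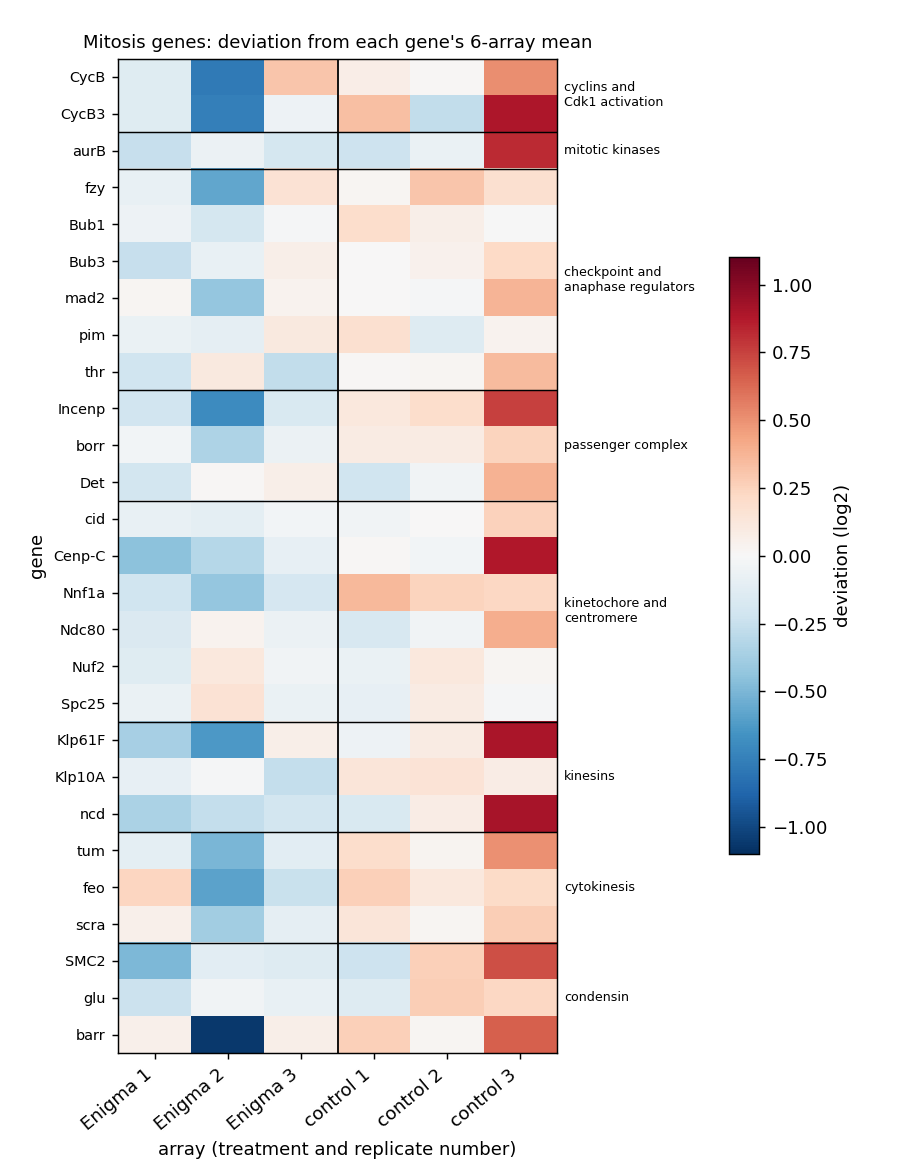
Deviation of each array from the mean of the gene over the 6 arrays (colour, log2), for the 27 mitosis genes (rows, grouped by role) on the 3 Enigma RNAi arrays (left) and the 3 control arrays (right). The column of control 3 is mostly red, the highest array for 18 genes, and that of Enigma 2 mostly blue, the lowest for 14.

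The genes did not share one pattern over these arrays. The deviation of Enigma 2 was deep for CycB, CycB3, barr, Incenp, Klp61F, fzy, feo and tum. It was slight for SMC2, glu, Det, Klp10A, aurB and Ndc80. Control 3 did not separate these sets. It was the highest array for CycB, CycB3, barr, Incenp, Klp61F and tum, and also for SMC2, Det, aurB and Ndc80. Within condensin, barr was thus lowest in Enigma 2, at 4.88, whereas SMC2 and glu were lowest in Enigma 1, at 6.49 and 8.30.

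The pairs showed the difference to unequal degrees. The median difference of the 27 genes was -0.21 in pair 1, -0.34 in pair 2 and -0.37 in pair 3, beside 0.0018, -0.028 and -0.049 over all tested probe sets. In pair 1, 23 genes were lower (background, 49.6%), in pair 2, 20 (background, 54.5%), and in pair 3, 26 (background, 62.9%). The difference was most negative in pair 3 for 16 genes, in pair 2 for 9 and in pair 1 for 2, Bub3 and pim. With the block but without replicate 1, 11 of the 27 fell past the adjusted threshold (background, 4.92%), a fit with 1 residual degree of freedom per gene. These were CycB, CycB3, Incenp, Cenp-C, Nnf1a, Klp61F, ncd, tum, feo, SMC2 and barr, and none passed without replicate 2 or without replicate 3.

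**Figure D4:**
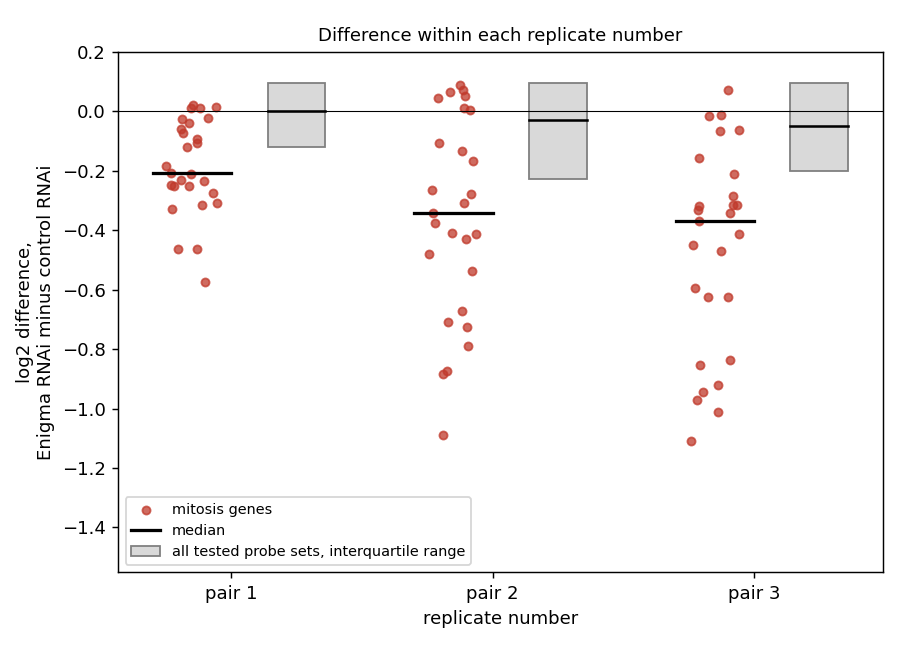
Log2 difference, Enigma RNAi minus control RNAi, within each replicate number (x axis). Red points are the 27 mitosis genes, black lines are medians, and grey boxes are the interquartile range of all tested probe sets. The medians of the mitosis genes are -0.21, -0.34 and -0.37, each below the grey box.

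The replicate number itself was tested with the treatment in the model. Of the 27 genes, 5 differed between replicate numbers (limma F test, adjusted p under 0.05; background, 23.5%): CycB, CycB3, Klp61F, SMC2 and barr. That share, 18.5%, is below the background. For CycB3 the means over both arrays of a number were 5.19, 4.58 and 5.51 for numbers 1, 2 and 3 (adjusted p = 0.0123), and for Klp61F they were 7.67, 7.61 and 8.36 (adjusted p = 0.0185). After quantile normalization, after cyclic loess or with no filter on low values, CycB3 and Klp61F alone passed. The mean of replicate 3 was the highest for 18 genes (background, 30.8%), and the lowest mean was that of replicate 2 for 14 (background, 32.9%), of replicate 1 for 12 (background, 41.1%) and of replicate 3 for 1, Klp10A (background, 26%).

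A wider list of 117 mitosis and cell-cycle names that are not among the 35, also chosen with earlier results known, had 78 genes tested. None passed the adjusted threshold in either fit. On average 64 were lower (82.1%; background, 58.3%) and 43 were lower in each of the 3 pairs (background, 25.2%), with a median difference of -0.18 beside -0.031 over all tested probe sets. That median was -0.11 without control 3 and -0.066 without control 3 and Enigma 2 together, where 51 of the 78 were lower (background, 57.5%). At an unadjusted p under 0.05, 5 were lower (background, 2.57%) and 0 higher, and with the replicate block 27 were lower (background, 12.4%) and 0 higher. The shares with the lower mean in the lists that follow stand beside the same background of 58.3%. Of 21 spindle and centrosome genes 19 had the lower mean (90.5%), with Klp67A, a kinesin of spindle length control, at -0.74 ± 0.30 (SE) and the augmin subunit gene dgt6 at -0.51 ± 0.17 (SE). Of 9 further kinetochore and checkpoint genes all 9 had the lower mean, with Spindly, a dynein adaptor at kinetochores, at -0.43 ± 0.12 (SE) and rod, of the complex that brings it there, at -0.36 ± 0.15 (SE).

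Klp67A was at 4.82, 3.82 and 4.89 in Enigma RNAi cells and at 5.26, 5.00 and 5.49 in control cells, without overlap and lowest in Enigma 2. Of 21 regulators of entry and exit 15 had the lower mean, 71.4% beside 58.3% of all tested probe sets, with a median of -0.076. Among them was Cdk2, the partner of cyclin E at the start of S phase, at 5.12, 4.79 and 5.07 in Enigma RNAi cells and at 5.62, 5.34 and 6.17 in control cells. The groups did not overlap for Cdk2, and its difference was -0.71 ± 0.22 (SE; limma, adjusted p = 0.999, and 0.0613 with the replicate block). The Aurora A activator gene bora differed by -0.40 ± 0.18 (SE).

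Cohesin and condensin genes outside the 35 had a median of -0.18 over 9, of which 8 had the lower mean (88.9%), with Cap-G, a condensin subunit, at -0.41 and the cohesin subunit gene SMC3 at -0.26. Further cytokinesis genes had a median of 0.041 over 7, and 3 of them had the lower mean (42.9%), among them Septin2 at -0.28 and the formin gene dia at -0.14. Transcription factors that act on cell-cycle genes had a median of -0.18 over 11, and 10 of them had the lower mean (90.9%). E2f1, an activator of genes for S phase, was at 8.27, 8.60 and 8.59 in Enigma RNAi cells and at 8.56, 8.80 and 9.32 in control cells. Its difference was -0.41 ± 0.21 (SE), and the groups overlapped. The retinoblastoma family gene Rbf2 differed by -0.43 ± 0.24 (SE), with values at the filter.

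Signs of RNA quality and cell type were read on the same arrays. The eIF4A control probe sets, read at the 3' end minus the 5' end of that transcript, gave log2 differences of 1.67, 1.52 and 1.95 in Enigma RNAi cells and of 1.49, 1.22 and 1.43 in control cells, without overlap (exact two-sided permutation p = 0.1, the smallest possible). The same reading differed less for the other control transcripts, by 0.17 for actin, higher in Enigma RNAi cells in all 3 pairs, and by 0.073 for GAPDH, higher in 2 of 3 pairs, with overlapping groups (exact two-sided permutation p = 0.4 for each). The part of RNA quality in the lower mitosis values was not tested. The plasmatocyte marker Hml, of the main haemocyte type, was at 10.59 to 11.28 in Enigma RNAi cells and at 10.61 to 11.48 in control cells, and 7 of 10 plasmatocyte markers were above the filter, without crq, NimC1 and eater. These 7 had a median difference of -0.066, from -0.37 for SPARC to 0.30 for vkg. None of the 7 had an unadjusted p under 0.05 (limma, no block). Some varied widely with the replicate number, which widens the spread in that fit. Col4a1 was at 9.52, 7.59 and 7.53 in Enigma RNAi cells and at 9.78, 7.65 and 7.41 in control cells. Those p-values therefore do not show that the markers were steady over the arrays.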

How the data were processed

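RNA of 6 samples was hybridised to 6 Affymetrix arrays, 1 biotin-labelled sample each. The deposited values were made by the authors with GCRMA, per the submitters' processing notes, a method that corrects background, normalizes between arrays and summarises probe sets. These deposited GCRMA values were read as log2 values, because the authors' method gives that scale and the values run from -0.32 to 14.30; the labels do not name a scale. The number of arrays limits the precision. Of 14010 probe sets, 44 Affymetrix controls were left out. Names came from GEO's platform annotation (1 gene for 12444 probe sets, several for 327, none here for 1239) and were checked by Entrez number against RefSeq genes, of which 12394 matched. Groups and replicate numbers came from sample titles.

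All tested probe sets entered one linear model (lmFit, then eBayes; limma 3.58.1 under R 4.3.3) with two-sided tests and Benjamini-Hochberg adjustment over all of them. The fit was tested on simulated data. The replicate number was not in the main model. Deviations from the group means correlated at 0.80, 0.64 and 0.65 between arrays numbered 1, 2 and 3, so the numbers were taken to pair the arrays, and blocked values are given where they change a count. This pairing comes from the titles and these values, not from a stated batch. Genes, roles, other lists and tests were chosen with earlier results of these data known. Every gene is accounted for. Values on each array are given for the 2 smallest p per role, whole roles of 3, the gene nearest to 0, and ncd and feo, which were added after their values were seen. The 2 smallest p are named from each further list, in which 106 of 117 names matched a current symbol and 85 had a probe set. Alternatives covered the block, filter, normalization, array weights, a floor, probe set choice and left-out arrays.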

Additional observations from a re-analysis of the deposited data

How the results depend on the processing

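The median difference of the 27 genes stayed negative in every setting tried, including quantile normalization and cyclic loess. It lay between -0.20 and -0.36 without single arrays, and was -0.13 without control 3 and Enigma 2 together, a setting chosen after seeing the data, as were the single pairs. The number lower was 24 to 27 without single arrays and 17 of the 17 genes with a mean log2 of at least 6. The number lower at an unadjusted p under 0.05 was 3, against 15 with the replicate block and 16 with a random replicate block, 5 with no filter, 5 with array weights, 2 to 8 without single arrays and 10 to 17 with the block and without a replicate number. Past the adjusted threshold there were 0, except 11 with the block and without replicate 1, where 586 of all probe sets passed against 44 with all replicates. The adjusted p values of those 11 lay between 6.57e-05 for Incenp and 0.0398 for CycB. Enigma, at -2.72, passed with the replicate block (limma, adjusted p = 0.000118) and not without it (adjusted p = 0.283). Its values of 3.24 and 3.51 in Enigma RNAi cells lay below 4, so low signal affects the size. With values floored at 4 it was at -2.31 (limma without the block, adjusted p = 0.0655). The number of genes that differed between replicate numbers was 5, against 2 with no filter, 2 with quantile normalization and 2 with cyclic loess. For the 78 further mitosis and cell-cycle genes, settings added after seeing the data gave a negative median each time, and 2 to 10 genes lower at an unadjusted p under 0.05 without single arrays and 11 with no filter, against 5. The causes were not tested.

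Signs turned only for genes with small differences or with 2 arrays left out. Spc25 was at -0.0068 with cyclic loess, -0.060 with array weights, -0.072 without Enigma 2 (highest without a single array, 0.051), -0.038 without control 1, -0.025 with the block and without replicate 2, and -0.075 without control 3 and Enigma 2. In that last setting CycB was at 0.041, mad2 at 0.031 and Det at 0.063. Nuf2 was at 0.019 without Enigma 1 and 0.0068 without control 2, with a lowest value of -0.11 without Enigma 2. The gene pim was at 0.049 with array weights, 0.032 without control 1, and 0.060 with the block and without replicate 1. Without control 3, Det was at 0.090 and Ndc80 at 0.042 (lowest without a single array, -0.21 and -0.25), and with the block and without replicate 3 they were at 0.037 and 0.044.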

Other observations

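Among the 78 further mitosis and cell-cycle genes tested, 4 had the higher value after Enigma RNAi in all 3 pairs, a direction that 15% of all tested probe sets shared. They are named because of that direction, once values had been seen. The centrosomal protein gene tacc was at 7.73, 8.01 and 7.99 in Enigma RNAi cells and at 7.60, 7.53 and 7.94 in control cells, a difference of 0.22. Septin1 was at 9.17, 9.13 and 9.25 in Enigma RNAi cells and at 9.16, 9.12 and 8.94 in control cells, a difference of 0.11, while its partner Septin2 was at 8.66, 8.52 and 8.81 in Enigma RNAi cells and at 8.86, 8.96 and 9.01 in control cells. Septin4 differed by 0.13 and mr, a subunit of the anaphase-promoting complex, by 0.15, with values near the filter. None passed the adjusted threshold (limma, with or without the block).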
